A study of Mus musculus with 8 samples.

Results

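The genes described here drive or brake the passage of mouse embryonic stem cells (ESCs) from G1 into S phase: the D-type cyclins Ccnd1, Ccnd2 and Ccnd3, the E-type cyclins Ccne1 and Ccne2, the cyclin-dependent kinases Cdk2, Cdk4 and Cdk6, and the inhibitors Cdkn1b and Cdkn2a. They were chosen by name, with earlier results of these data known, and all 10 were found among the 38991 genes of the RNA sequencing. The cells were RGd2 (Rex1GFPd2) ESCs of strain 129, which carry a destabilised GFP reporter for Rex1 in every group. All spent their first 6 passages in 2i, followed by 5 passages on gelatin in N2B27 medium with 1 of 4 supplements, with 2 cultures in each, at passage 11. The supplements were CH and PD without LIF (2i), all 3 agents (2i+LIF), CH with LIF (CH+LIF) and LIF with PD (LIF+PD). CH is CHIR99021, an inhibitor of GSK3 given at 3 µM, PD is PD0325901, an inhibitor of MEK given at 1 µM, and LIF is a cytokine that signals through Stat3. The cultures were split every 3 days at 15000 cells per cm2. The labels number the replicates without saying how they were kept apart. The p-values below rest on the spread between replicate cultures, pooled over the conditions. That spread may be technical, and all cultures come from a single cell line.

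D-type cyclins bind Cdk4 or Cdk6, and E-type cyclins bind Cdk2. These complexes phosphorylate the retinoblastoma protein, which frees E2F factors to switch on the genes for DNA synthesis. Cdkn1b encodes p27Kip1, which inhibits Cdk2 complexes, and Cdkn2a encodes p16Ink4a, which blocks Cdk4 and Cdk6, and p19Arf, which acts through p53. Mouse ESCs are known for a short G1 phase, for high Cdk2 activity and for cyclin E that varies little over the cycle.

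The values are FPKM, sequenced fragments scaled by transcript length and by the mapped reads of the library. This scaling is meant to let levels be set side by side between genes and between cultures, with the limits given below. A difference is given on the log2(FPKM + 1) scale, where a difference of 1 is close to a doubling for a well expressed gene, with its standard error (SE). It was tested with limma in a fit of all 8 cultures over the 12927 genes that reached 1 FPKM in 2 or more cultures, and called where the Benjamini-Hochberg adjusted p over all those genes was below 0.05. Because the RNA is that of a whole culture, fewer cells that express a gene and less RNA of it per cell cannot be told apart. FPKM are also relative to all the RNA measured in the culture, and their sums ranged from 715575 to 875458 between cultures.

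Of the 10 genes, 9 passed the filter on low values, and the exception was Ccnd2. In 2i, without LIF, 6 of the 9 tested genes differed from 2i+LIF, against 18.6% of all genes tested (9.77% higher and 8.86% lower). Ccnd1, Cdk6 and Cdkn2a were higher and Ccnd3, Cdk2 and Cdkn1b were lower. In LIF+PD, without CH, 4 of the 9 differed from 2i+LIF, against 25.2% of all genes (14.8% higher and 10.4% lower). Ccnd1 and Ccne1 were higher and Cdk4 and Cdk6 were lower. In CH+LIF, without PD, 4 of the 9 differed from 2i+LIF, against 25.4% of all genes (12.2% higher and 13.3% lower). Ccne1 and Cdk6 were higher and Cdkn1b and Cdkn2a were lower. These 3 comparisons share the 2i+LIF cultures. Because the 10 genes were chosen with earlier results of these data known, their counts beside the shares of all genes are a description only. The median difference of the 9 genes was -0.08, 0.06 and 0.11, in the same order, and that of all genes tested was 0.04, 0.03 and 0.01.

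**Figure D1:**
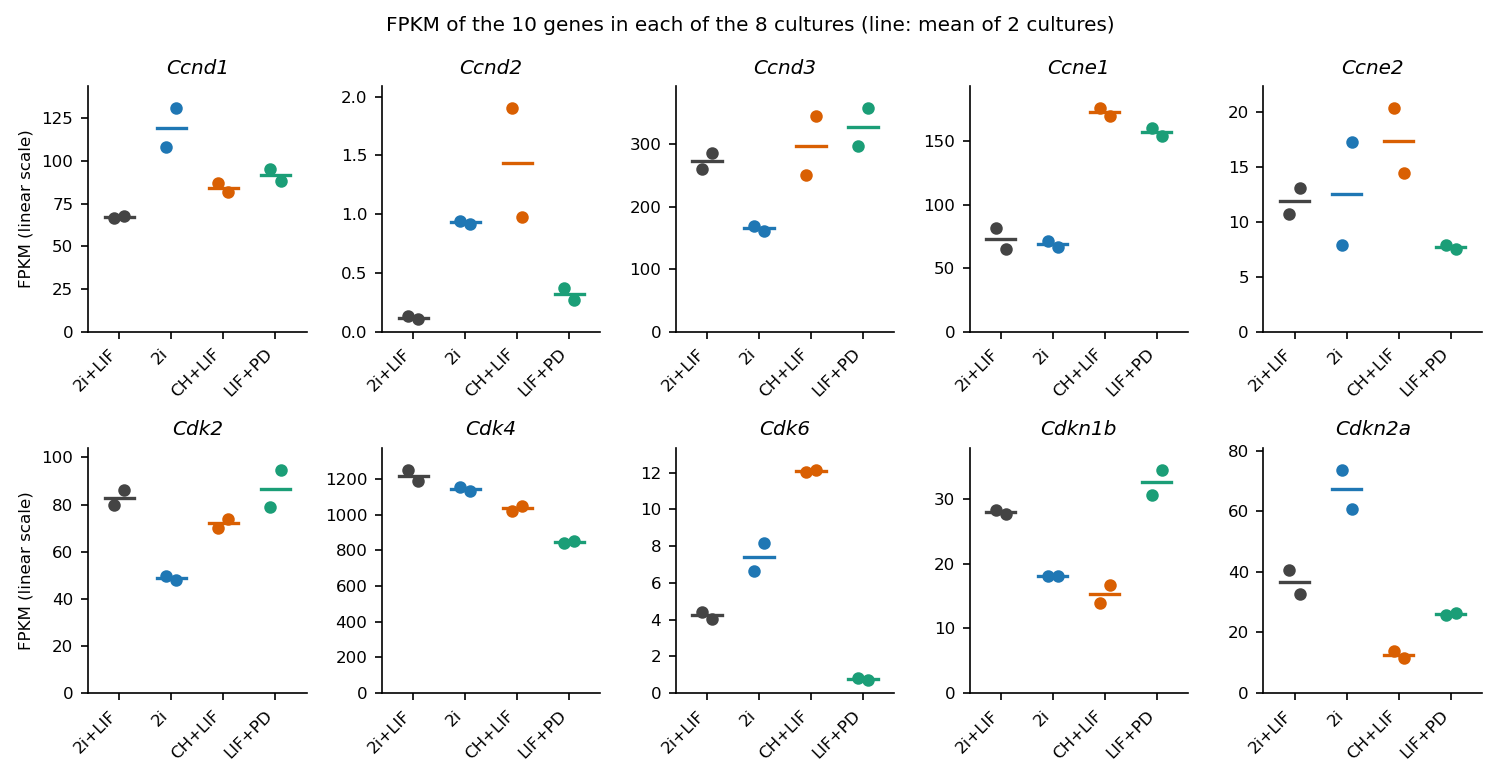
FPKM (vertical axes, linear from 0, a separate scale for each gene) of the 10 genes in the 8 cultures, grouped by condition (horizontal axes). Points are cultures and lines are the means of 2 cultures. Ccne1 is at 154 FPKM or more in CH+LIF and LIF+PD and at or below 81.6 in 2i+LIF and 2i, and Cdk6 separates all 4 conditions.

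The conditions with 2 of the 3 agents were also set against each other. Between LIF+PD and 2i, 8 of the 9 tested genes differed, against 25.1% of all genes (14.0% higher and 11.1% lower). Ccnd3, Ccne1, Cdk2 and Cdkn1b were higher in LIF+PD, and Ccnd1, Cdk4, Cdk6 and Cdkn2a were lower. Between CH+LIF and 2i, 6 of the 9 differed, against 23.9% of all genes (10.6% higher and 13.3% lower), with Ccnd3, Ccne1, Cdk2 and Cdk6 higher in CH+LIF and Ccnd1 and Cdkn2a lower. Between CH+LIF and LIF+PD, 5 of the 9 differed, against 30.4% of all genes (12.6% higher and 17.8% lower), with Ccne2, Cdk4 and Cdk6 higher in CH+LIF and Cdkn1b and Cdkn2a lower. Over the 6 comparisons, 33 of 54 tests passed the threshold. Of those 33 calls, 20 were past it under each of the 19 alternative settings of the analysis, and all 33 kept their direction.

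**Figure D2:**
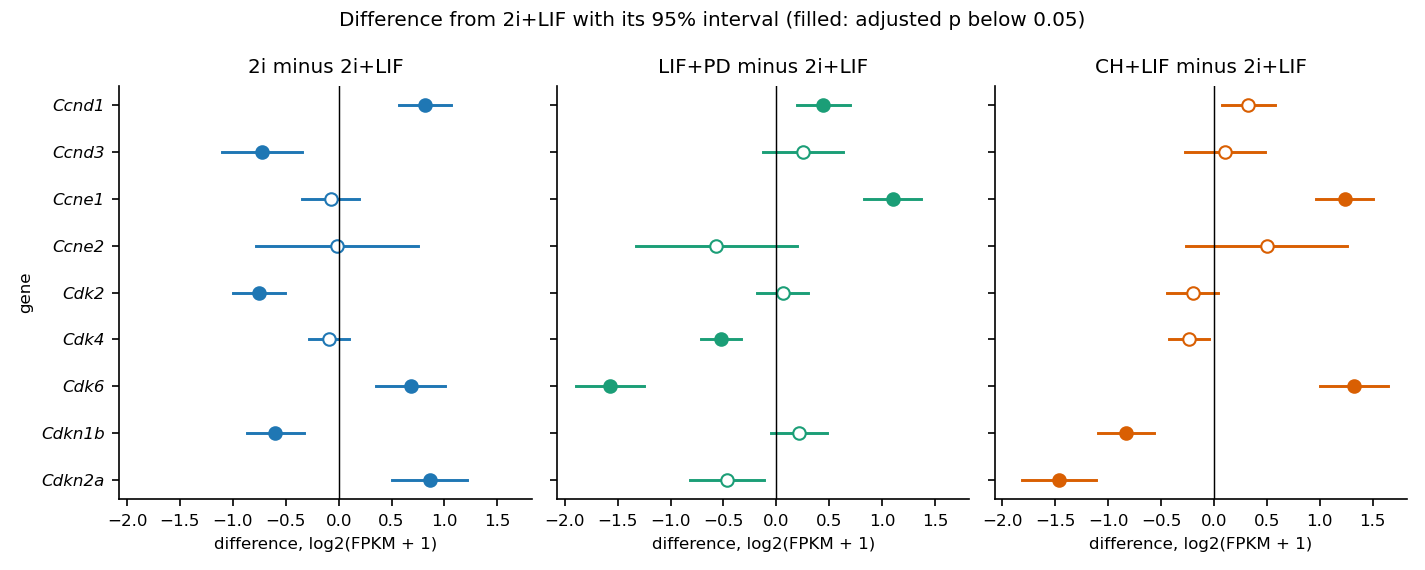
Difference of each tested gene from 2i+LIF on the log2(FPKM + 1) scale (horizontal axes), in 2i, LIF+PD and CH+LIF (panels). Points are limma estimates, bars are 95% intervals, and filled points have an adjusted p below 0.05. The intervals of Cdk6 and Cdkn2a lie on opposite sides of 0 in different panels.

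Target genes of each pathway followed the media. Socs3, a Stat3 target, was between 1.29 and 2.59 FPKM in 2i and at least 63.9 in the 6 cultures with LIF. Axin2, a target of beta-catenin, was between 1.85 and 2.47 FPKM in LIF+PD and at least 59.4 in the 6 cultures with CH, and Spry4, a target of the MEK pathway, was between 37.5 and 40.7 FPKM in CH+LIF and at most 2.17 elsewhere. The 9 ESC genes on the marker list all had a mean of at least 1 FPKM in every condition, and their summed level, to which Pou5f1 gave the most, ranged from 2987 to 3950 FPKM. Compared with 2i+LIF, 5 of the 9 were lower in 2i and none higher, 4 lower and 1 higher in LIF+PD, and 3 lower and none higher in CH+LIF. Klf4 fell from a mean of 200 to 49.1 FPKM in 2i and Dppa3 from 57.0 to 2.34 in CH+LIF. Markers of post-implantation epiblast summed to 96.1 and 104 FPKM in LIF+PD, with Otx2 at 49.2 and 50.3. Their sum was 56.5 and 84.0 in 2i and 71.9 and 69.1 in CH+LIF. It was between 35.7 and 38.0 in 2i+LIF, where Fgf5 was listed at 0. The neural list summed to 19.2 and 19.7 FPKM in LIF+PD and between 10.6 and 12.4 in 2i, mostly from Pax6 in both, and to at most 6.03 elsewhere. Trophectoderm markers were lowest in LIF+PD, at 1.69 and 1.86 FPKM against 9.52 to 17.7 elsewhere, primitive endoderm markers were between 0.908 and 2.93, and fibroblast markers between 0.270 and 17.1 (with Postn at 14.1 in replicate 2 of CH+LIF). The part of such cells in the levels of the 10 genes was not tested. Correlations of log2 values were between 0.974 and 0.983 within conditions and 0.930 and 0.954 between them. Read totals are not part of FPKM, and depth relative to replicate 1 of 2i+LIF, estimated from lowly expressed genes, was 0.499 in replicate 1 of 2i and between 0.903 and 1.18 in the others.

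Ccnd3 (ENSMUSG00000034165, mm10 chr17:47505051-47599691) was the most abundant D-type cyclin in all 8 cultures. Its FPKM was 260 and 286 in 2i+LIF, 169 and 162 in 2i, 251 and 344 in CH+LIF, and 296 and 357 in LIF+PD. Both 2i cultures were thus below all of the others, while the 3 conditions with LIF overlapped or lay next to each other. Compared with 2i+LIF, Ccnd3 was lower in 2i by a difference of -0.72 (SE 0.160, adjusted p = 0.0221), a ratio of mean FPKM of 0.605. That call was lost without any single culture of these 2 conditions, at adjusted p between 0.0699 and 0.114, with each culture rescaled to the same sum (0.0502) and without the filter on low values (0.0539). The order of the means was LIF+PD, CH+LIF, 2i+LIF and 2i, and only the last step passed the test. LIF+PD was above 2i by 0.97 (SE 0.160, adjusted p = 0.00521), and CH+LIF was above 2i by 0.83 (SE 0.160, adjusted p = 0.0116, or 0.051 without replicate 2 of 2i).

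Ccnd1 (ENSMUSG00000070348, chr7:144929931-144939869) had its highest level in 2i, where Ccnd3 was lowest. Among the conditions with LIF, the means of Ccnd1 had the same order as those of Ccnd3, namely LIF+PD, CH+LIF and 2i+LIF. Its FPKM was 66.6 and 67.6 in 2i+LIF, 108 and 131 in 2i, 87.1 and 81.7 in CH+LIF, and 95.2 and 88.3 in LIF+PD. The 2i+LIF cultures were the lowest of the 8 and the 2i cultures the highest, with no overlap between any 2 conditions. Ccnd1 rose in 2i by 0.82 over 2i+LIF (SE 0.105, adjusted p = 0.00269), which was 1.78 times the mean FPKM. In LIF+PD it was higher than in 2i+LIF by 0.45 (SE 0.105, adjusted p = 0.0216), a call that was lost without any single culture of these 2 conditions at adjusted p between 0.0601 and 0.111. In CH+LIF the difference from 2i+LIF was 0.33 (95% interval 0.08 to 0.57, adjusted p = 0.0598), which did not pass. It passed without replicate 1 or 2 of 2i, at adjusted p of 0.0314 and 0.0317, with rescaling (0.0242) and with only the 2 conditions fitted (0.047). The drop from 2i to CH+LIF was -0.49 (adjusted p = 0.0165, and between 0.0554 and 0.0806 without replicate 2 of 2i or either CH+LIF culture), and it was lost with rescaling (0.0975) and with only the 2 conditions fitted (0.0583). The drop from 2i to LIF+PD was -0.37 (adjusted p = 0.0396) and passed in 7 of the 19 alternative settings.

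Ccnd2 (ENSMUSG00000000184, chr6:127125779-127151048), the D-type cyclin of lowest level here, was at 0.129 and 0.103 FPKM in 2i+LIF, 0.94 and 0.919 in 2i, 1.90 and 0.975 in CH+LIF, and 0.371 and 0.269 in LIF+PD. Only replicate 1 of CH+LIF exceeded 1 FPKM, so the gene was outside the main test. In the fit of 21125 genes without the filter, Ccnd2 was higher in CH+LIF than in 2i+LIF by 1.10 (SE 0.183, adjusted p = 0.0178) and than in LIF+PD by 0.86 (SE 0.183, adjusted p = 0.0280). Its difference between 2i and 2i+LIF was 0.79 (adjusted p = 0.0527).

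The balance of the D-type cyclins followed from these levels. Ccnd3 made up 79.6% and 80.9% of the summed D-cyclin FPKM in 2i+LIF and 60.7% and 55.1% in 2i. In CH+LIF it made up 73.8% and 80.7%, and in LIF+PD 75.6% and 80.1%. The FPKM of Ccnd3 lay above the upper bound deposited with it in all 8 cultures, by 1.27 to 1.38 times the midpoint of the bounds, and from the midpoints its share was 75.3% and 76.4% in 2i+LIF and 54.2% and 48.1% in 2i. The summed D-cyclin FPKM was 327 and 354 in 2i+LIF, 278 and 294 in 2i, 340 and 427 in CH+LIF and 392 and 446 in LIF+PD, so the 2i cultures had the lowest sums.

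Ccne1 (ENSMUSG00000002068, chr7:38097984-38107534), which encodes cyclin E1, split the conditions into a lower and a higher set. Its FPKM was 81.6 and 65.0 in 2i+LIF and 71.5 and 66.5 in 2i, against 176 and 170 in CH+LIF and 161 and 154 in LIF+PD. The 4 cultures with LIF and only 1 inhibitor were all above the 4 cultures with both inhibitors. Compared with 2i+LIF, Ccne1 rose by 1.23 in CH+LIF (SE 0.113, adjusted p = 0.000898) and by 1.10 in LIF+PD (SE 0.113, adjusted p = 0.00082), or 2.36 and 2.15 times the mean FPKM. Compared with 2i it was higher by 1.31 in CH+LIF (adjusted p = 0.000527) and by 1.18 in LIF+PD (adjusted p = 0.000562). All 4 calls held under every alternative setting. The difference between CH+LIF and LIF+PD was 0.14 (95% interval -0.13 to 0.40, adjusted p = 0.407), and that between 2i and 2i+LIF was -0.08 (95% interval -0.34 to 0.19, adjusted p = 0.676).

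Ccne2 (ENSMUSG00000028212, chr4:11191351-11204779), which encodes cyclin E2, was much lower and more variable. Its FPKM was 10.7 and 13.1 in 2i+LIF, 7.88 and 17.3 in 2i, 20.4 and 14.4 in CH+LIF, and 7.89 and 7.50 in LIF+PD. These values lay above the upper bound deposited with them in replicate 2 of 2i and in both CH+LIF cultures, at 1.33 to 1.44 times the midpoint of the bounds, and the midpoints were 7.79 and 12.04 in 2i and 14.6 and 10.9 in CH+LIF. The spread between the 2i cultures was as wide as most differences between conditions. None of its 3 differences from 2i+LIF passed, at adjusted p between 0.244 and 0.983, although that of LIF+PD did with only the 2 conditions fitted (0.0417). Against 2i, LIF+PD passed without replicate 1 of 2i (adjusted p = 0.0257) and CH+LIF without replicate 2 of 2i (0.0305), but not with both. It was higher in CH+LIF than in LIF+PD by 1.06 (SE 0.324, adjusted p = 0.0450), but this call held in only 10 of 19 alternative settings and was lost without any single culture of 2i+LIF, CH+LIF or LIF+PD, at adjusted p between 0.0667 and 0.209. Ccne2 made up 4.65% to 20.6% of the summed E-cyclin FPKM. Its interval overlaps that of Ints8 on the other strand, which was between 27.9 and 42.1 FPKM, and the methods describe strand-specific read counts, whereas whether the deposited FPKM took strand into account is not given in the sources used here.

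Cdk4 (ENSMUSG00000006728, chr10:127063534-127067920), a partner of the D-type cyclins, was the most abundant of the 10 genes and ranked 117th of 38991 by mean FPKM. Its FPKM was 1253 and 1187 in 2i+LIF, 1156 and 1132 in 2i, 1023 and 1051 in CH+LIF, and 839 and 855 in LIF+PD. The 4 conditions did not overlap, although they lay within a narrow range. Cdk4 was lower in LIF+PD than in 2i+LIF by -0.53 (SE 0.080, adjusted p = 0.0042), a ratio of mean FPKM of 0.694, and this held under every alternative setting. It was also lower in LIF+PD than in 2i by -0.43 (adjusted p = 0.0082, or 0.0609 and 0.0521 without replicate 1 or 2 of LIF+PD and 0.0525 with quantile normalization). It was higher in CH+LIF than in LIF+PD by 0.29 (adjusted p = 0.0319, between 0.0935 and 0.15 without any single culture of these conditions, 0.0589 without the filter and 0.0505 without limma's mean-variance trend). The steps from 2i+LIF to 2i (-0.09, adjusted p = 0.463) and from 2i+LIF to CH+LIF (-0.23, adjusted p = 0.0735) did not pass. Its FPKM was above its own upper bound in all 8 cultures, at 1.50 to 1.58 times the midpoint of the bounds, and its calls were made again from the midpoints with the same outcome.

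Cdk6 (ENSMUSG00000040274, chr5:3343893-3523218), the second kinase that D-type cyclins bind, had the largest relative range of the kinases. Its FPKM was 4.41 and 4.06 in 2i+LIF, 6.65 and 8.18 in 2i, 12.1 and 12.2 in CH+LIF, and 0.824 and 0.693 in LIF+PD. No condition overlapped another, and its order of CH+LIF, 2i, 2i+LIF and LIF+PD was the only order among the 9 tested genes in which every neighbouring step passed the test. Cdk6 fell by 1.57 on the log2 scale in LIF+PD against 2i+LIF (SE 0.137, adjusted p = 0.000466), where the mean FPKM was 5.58 times lower. In CH+LIF it rose by 1.32 over 2i+LIF (SE 0.137, adjusted p = 0.00133), 2.86 times the mean FPKM. Between CH+LIF and LIF+PD the difference was 2.90 (SE 0.137, adjusted p = 4.69e-05) and the ratio of mean FPKM was 16.0. These 3 calls held under every alternative setting, but their sizes on this scale depend on the pseudocount, and with a pseudocount of 5 the difference was -0.68 in LIF+PD against 2i+LIF and 1.57 in CH+LIF against LIF+PD.

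The smaller steps of Cdk6 were less firm. In 2i it was higher than in 2i+LIF by 0.68 (SE 0.137, adjusted p = 0.0155), and the adjusted p was 0.06 and 0.0888 without replicate 1 or 2 of 2i+LIF and 0.0672 without replicate 2 of 2i, and 0.0548 with only the 2 conditions fitted. CH+LIF exceeded 2i by 0.65 (adjusted p = 0.0161), with 0.0728 without replicate 1 of 2i and 0.0764 and 0.0731 without replicate 1 or 2 of CH+LIF. Despite its changes Cdk6 stayed far below Cdk4 in FPKM. It made up 0.351% and 0.340% of the summed FPKM of Cdk4 and Cdk6 in 2i+LIF, 0.572% and 0.717% in 2i, 1.16% and 1.14% in CH+LIF, and 0.0981% and 0.0810% in LIF+PD. From the midpoints of the bounds, above which the FPKM of Cdk4 but not that of Cdk6 lay, these shares were 0.551% and 0.538%, 0.880% and 1.11%, 1.80% and 1.70%, and 0.152% and 0.126%, in the same order. Of the 3 mesoderm markers, T, a target of beta-catenin, had the same order of conditions as Cdk6, at 36.3 and 18.5 FPKM in CH+LIF, 15.4 and 8.24 in 2i, 4.86 and 3.64 in 2i+LIF and 0.161 and 0.210 in LIF+PD. Kdr had another order, at 1.41 and 1.38 FPKM in LIF+PD, 0.932 and 1.03 in 2i+LIF, 0.627 and 0.607 in CH+LIF and 0.280 and 0.353 in 2i, while Mixl1 was between 0.189 and 0.598 FPKM. The sum of the 3 was between 19.5 and 37.4 FPKM in CH+LIF, 9.12 and 16.3 in 2i, 5.22 and 6.18 in 2i+LIF and 1.78 and 1.83 in LIF+PD, where Kdr made up most of it and T did so elsewhere. The part of such cells in the levels of Cdk6 was not tested.

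Cdk4 and Cdk6 share the D-type cyclins but differ in level and in response. The 250 bases before the RefSeq start of each gene are shown as a description (GRCm38.p6, gene orientation). Of the 10 genes, 7 had such a window, with 9 starts in all, and Ccnd1, Ccnd2 and Ccne2 had none. The windows were searched on both strands for the E-box CACGTG, the E2F words TTCCCGC and TTGGCGC, the TCF/LEF word CTTTGA, the STAT word TTCNNNGAA and the AP-1 word TGANTCA, and capitals mark every match.
Cdk4, chr10:127063285-127063534, plus strand: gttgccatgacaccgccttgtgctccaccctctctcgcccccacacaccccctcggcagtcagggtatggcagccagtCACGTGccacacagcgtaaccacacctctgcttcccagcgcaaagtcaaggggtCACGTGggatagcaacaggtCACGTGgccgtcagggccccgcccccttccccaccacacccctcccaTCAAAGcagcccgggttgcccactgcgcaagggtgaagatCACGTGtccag
Cdk6, chr5:3343643-3343892, plus strand: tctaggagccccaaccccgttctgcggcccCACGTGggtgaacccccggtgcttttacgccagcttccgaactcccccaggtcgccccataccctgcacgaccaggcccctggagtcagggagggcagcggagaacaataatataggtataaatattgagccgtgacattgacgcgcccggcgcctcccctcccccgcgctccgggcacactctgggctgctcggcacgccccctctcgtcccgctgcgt
The Cdk4 window held 4 copies of CACGTG, at 172, 118, 98 and 11 bases before the start (5′ end of each match), and 1 TCF/LEF word on the other strand. The Cdk6 window held 1 copy of CACGTG, 220 bases before the start. At least 1 copy was found in 6.02% of 32851 promoter windows, and 4 or more in 0.0213%. A match describes the letters and not the binding of a factor, and any link of the matches to level or response was not tested.

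Cdk2 (ENSMUSG00000025358, chr10:128697939-128705051), the partner of the E-type cyclins, was lowest in 2i. Its FPKM was 79.9 and 86.0 in 2i+LIF, 49.5 and 48.0 in 2i, 70.2 and 73.9 in CH+LIF, and 78.8 and 94.7 in LIF+PD. Both 2i cultures lay below the other 6. Cdk2 was lower in 2i than in 2i+LIF by -0.75 (SE 0.103, adjusted p = 0.00347), a ratio of mean FPKM of 0.588, and LIF+PD exceeded 2i by 0.81 (SE 0.103, adjusted p = 0.00182), both under every alternative setting. CH+LIF exceeded 2i by 0.55 (adjusted p = 0.01, or 0.0547 without replicate 2 of CH+LIF). Among the conditions with LIF the differences were at most 0.26 in size and did not pass, except CH+LIF against LIF+PD without replicate 1 of LIF+PD (adjusted p = 0.0467).

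Cdk2 shares 837 bases with Pmel, a pigment cell gene on the opposite strand. Pmel was at 23.6 and 23.4 FPKM in 2i+LIF, 1.30 and 1.15 in 2i, 14.2 and 14.6 in CH+LIF, and 18.3 and 19.6 in LIF+PD. It was therefore also lowest in 2i, where its mean lay 22.3 FPKM below 2i+LIF against 34.2 FPKM for Cdk2. If the FPKM were made without regard to strand, reads of the overlap cannot be told apart, and their part in the level of Cdk2 was not tested. Ccnd1, Ccnd3 and Cdk4 also overlap genes of the opposite strand, namely Oraov1 at 4.93 to 6.47 FPKM (10.04 in replicate 1 of 2i), Bysl at 33.9 to 40.6 and Tspan31 at 46.1 to 61.3. Cdk6 shares 8013 bases with Gm17590 and 1448 with Gm42435, both antisense genes without an FPKM here. Ccnd2 shares 994 bases with the antisense gene Gm43126, also without an FPKM, and 2805 with 9330179D12Rik, at most 0.0854 FPKM.

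Cdkn1b (ENSMUSG00000003031, chr6:134920401-134925513), which encodes the Cdk2 inhibitor p27Kip1, had its highest levels in the conditions with both LIF and PD. Its FPKM was 28.3 and 27.6 in 2i+LIF, 18.1 and 18.1 in 2i, 13.9 and 16.8 in CH+LIF, and 30.6 and 34.5 in LIF+PD. The 4 cultures of 2i+LIF and LIF+PD were all above the 4 of 2i and CH+LIF. Cdkn1b fell in CH+LIF against 2i+LIF, with a difference of -0.83 (SE 0.113, adjusted p = 0.00318) and 0.548 times the mean FPKM, and was lower in CH+LIF than in LIF+PD by -1.04 (SE 0.113, adjusted p = 0.000788). LIF+PD exceeded 2i by 0.81 (SE 0.113, adjusted p = 0.00271), and these 3 calls held in all alternatives. In 2i it was lower than in 2i+LIF by -0.60 (SE 0.113, adjusted p = 0.012), with adjusted p of 0.0683 and 0.0613 without replicate 1 or 2 of 2i+LIF and 0.0509 without replicate 2 of 2i. The differences between LIF+PD and 2i+LIF (0.21, 95% interval -0.05 to 0.48) and between CH+LIF and 2i (-0.24, 95% interval -0.50 to 0.03) did not pass.

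Cdkn2a (ENSMUSG00000044303, chr4:89274471-89294653) had the widest range of the inhibitors, and its order was not that of Cdkn1b. Its FPKM was 40.7 and 32.6 in 2i+LIF, 73.7 and 60.9 in 2i, 13.9 and 11.4 in CH+LIF, and 25.8 and 26.3 in LIF+PD. No 2 conditions overlapped, and the level in 2i was 5.32 times that in CH+LIF. Cdkn2a rose in 2i by 0.86 over 2i+LIF (SE 0.149, adjusted p = 0.00866, or 0.0543 without replicate 2 of 2i+LIF). In CH+LIF it fell by 1.46 on the log2 scale against 2i+LIF (SE 0.149, adjusted p = 0.00128). Relative to 2i, it was lower in CH+LIF by -2.32 (SE 0.149, adjusted p = 0.000155) and in LIF+PD by -1.33 (SE 0.149, adjusted p = 0.00106), and CH+LIF was below LIF+PD by -0.99 (adjusted p = 0.00307). These 4 differences held under every alternative setting. The difference between LIF+PD and 2i+LIF was -0.47 (95% interval -0.82 to -0.12, adjusted p = 0.0584) and did not pass, but it did with median-of-ratios scaling (0.0403), with quantile normalization (0.0414) and with the replicate number as a block (0.0242).

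The locus of Cdkn2a has separate starts for p19Arf and, further downstream, p16Ink4a, and each gene has a single FPKM, so the transcripts cannot be told apart in these values. The windows before both starts are shown for that reason, in gene orientation with capitals as above.
Cdkn2a, upstream start, chr4:89294620-89294869, minus strand: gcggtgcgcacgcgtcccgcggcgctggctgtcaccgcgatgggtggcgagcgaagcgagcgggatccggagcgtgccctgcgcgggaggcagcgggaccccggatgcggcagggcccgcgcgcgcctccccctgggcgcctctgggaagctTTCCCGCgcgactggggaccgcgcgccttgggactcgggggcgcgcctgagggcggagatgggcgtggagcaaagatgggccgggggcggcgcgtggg
Cdkn2a, downstream start, chr4:89282193-89282442, minus strand: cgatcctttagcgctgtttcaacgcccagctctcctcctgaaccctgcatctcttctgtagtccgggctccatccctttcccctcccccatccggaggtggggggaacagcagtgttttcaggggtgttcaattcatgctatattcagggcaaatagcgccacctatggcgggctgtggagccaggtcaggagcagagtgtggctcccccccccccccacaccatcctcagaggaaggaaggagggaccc
The upstream window was 78.4% G and C with 40 CG dinucleotides and held the E2F word TTCCCGC 98 bases before the start, while the downstream window was 60.0% G and C with 7 CG dinucleotides and held none of the words. An E2F word was found in 5.62% of all windows. The Cdk2 window held 2 E2F words, 140 and 10 bases before its start, and the windows of Ccnd3, Ccne1 and Cdkn1b held none of the words.

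**Figure D3:**
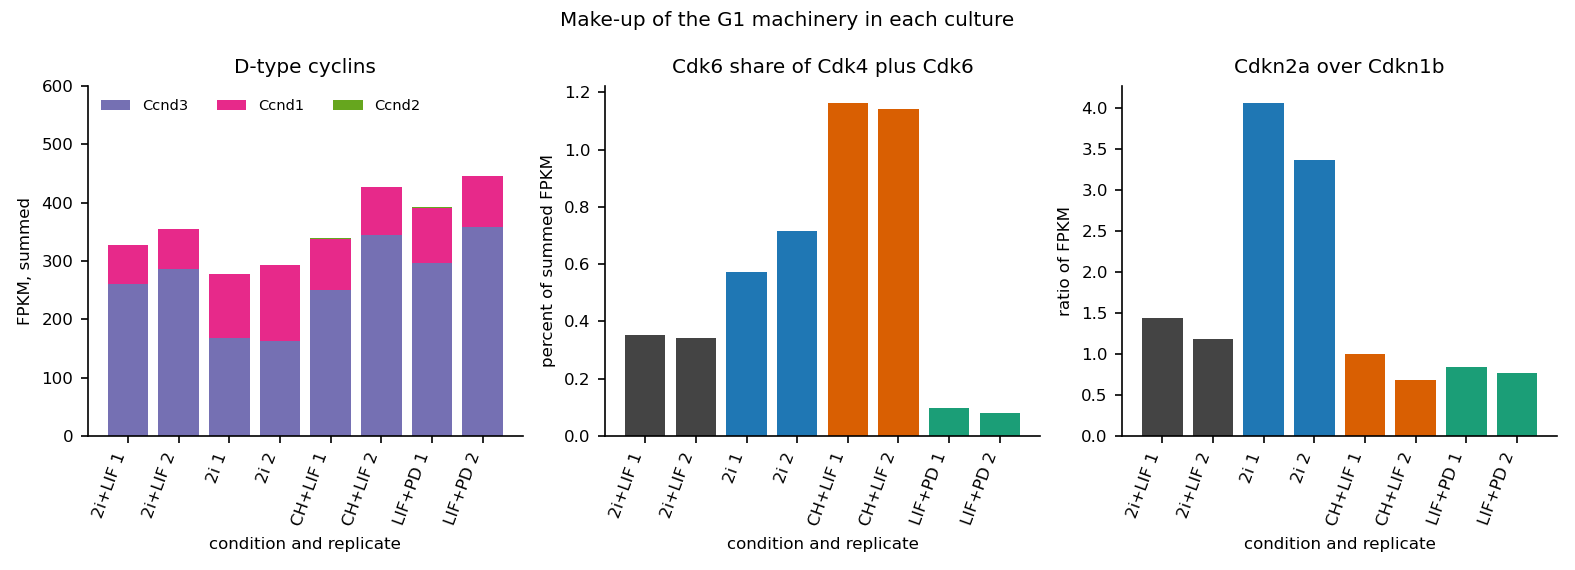
Make-up of the G1 genes in each of the 8 cultures (horizontal axes, condition and replicate). Bars show the summed FPKM of the D-type cyclins (left), the share of Cdk6 in the summed FPKM of Cdk4 and Cdk6 (middle, percent) and the ratio of Cdkn2a to Cdkn1b FPKM (right), which is 4.06 and 3.36 in 2i and at most 1.44 elsewhere.

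The inhibitors and the cyclins were also set against each other within each culture. The ratio of Cdkn2a to Cdkn1b FPKM was 1.44 and 1.18 in 2i+LIF, 4.06 and 3.36 in 2i, 1.00 and 0.681 in CH+LIF, and 0.844 and 0.762 in LIF+PD. The 2i cultures stood above the others, and CH+LIF and LIF+PD overlapped. Ccne1 exceeded Cdkn1b by 2.89 and 2.35 times in 2i+LIF, 3.95 and 3.67 times in 2i, 12.7 and 10.1 times in CH+LIF, and 5.24 and 4.46 times in LIF+PD. This ratio was highest in CH+LIF, where Ccne1 was at its highest and Cdkn1b at its lowest mean. These ratios are descriptions of the levels above and were not tested.

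Genes with the pattern most like the leading cyclin, kinase and inhibitor were sought among 8810 genes with a mean of at least 5 FPKM, by Pearson's r over the 8 cultures, which share the condition means. For Ccne1 they were Ddx19b (0.984), Cenpk (0.980) and Dffa (0.977). For Cdk6 they were Exoc6b (0.995), Epb4.1l2 (0.994) and Tmem131 (0.991), and for Cdkn2a Cd37 and Yipf3 (both 0.984) and 2410015M20Rik (0.980). An r of at least 0.95 was reached by 23 genes for Ccne1, 47 for Cdk6 and 34 for Cdkn2a.

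Among 28 other regulators of the G1/S transition, 5 were higher and none lower in 2i than in 2i+LIF, 7 higher and 2 lower in LIF+PD, and 8 higher and 5 lower in CH+LIF. These are 17.9%, 32.1% and 46.4% of the list, against 18.6%, 25.2% and 25.4% of all genes. With each culture rescaled to the same sum, the counts became 6 higher and none lower in 2i and 13 higher and 2 lower in LIF+PD. In CH+LIF they became 11 higher and 3 lower. Among all 12927 genes, rescaling raised the number called higher from 1913 to 2601 in LIF+PD and from 1573 to 2903 in CH+LIF. With median-of-ratios scaling the counts of the list were unchanged. With quantile normalization only 2i changed, to 6 higher and none lower. The list holds 5 other inhibitors of the kinases. Cdkn2d, which encodes p19Ink4d, was between 9.74 and 11.5 FPKM in 2i+LIF, 2i and LIF+PD and lower in CH+LIF, at 5.91 and 7.13 (-0.58, adjusted p = 0.0159). Cdkn1a, which encodes p21Cip1, was at 101 and 106 FPKM in 2i+LIF and 33.9 and 33.6 in LIF+PD and fell by 1.58 on the log2 scale (SE 0.086, adjusted p = 8.98e-05), the largest fall among the called genes of the list there. It was also lower in CH+LIF by -0.78 (adjusted p = 0.00156). Cdkn1c, which encodes p57Kip2, was higher in all 3 conditions than in 2i+LIF, by 1.14, 1.77 and 0.60 in 2i, LIF+PD and CH+LIF. Cdkn2b, the neighbour of Cdkn2a that encodes p15Ink4b, was at 1.20 and 1.79 FPKM in 2i+LIF, 4.83 and 4.51 in 2i, 0.839 and 0.95 in CH+LIF and 4.51 and 4.25 in LIF+PD. It was higher than in 2i+LIF by 1.19 in 2i and by 1.12 in LIF+PD, whereas the Cdkn2a difference in LIF+PD was negative and did not pass.

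Rb1, the substrate of these kinases, had the largest rise among the called genes of the list in 2i and in LIF+PD. It was at 3.69 and 2.88 FPKM in 2i+LIF, 8.14 and 14.8 in 2i, 2.56 and 5.07 in CH+LIF, and 23.3 and 15.5 in LIF+PD, with wide gaps between replicates. Its difference from 2i+LIF was 1.49 in 2i (SE 0.350, adjusted p = 0.0271) and 2.23 in LIF+PD (SE 0.350, adjusted p = 0.00464). In CH+LIF the largest rise among called genes was that of Tfdp1, the dimer partner of E2F factors (0.76, adjusted p = 0.0014), while E2f2 had a larger difference that did not pass (1.07, adjusted p = 0.0516). The largest fall among called genes was that of Cdkn2c, which encodes p18Ink4c and was at 0.544 against 2.05 mean FPKM (adjusted p = 0.0233). Skp2, a ubiquitin ligase subunit that targets p27Kip1 for degradation, was higher than in 2i+LIF by 0.70 in 2i and by 0.36 in CH+LIF. In LIF+PD the difference was 0.18 (adjusted p = 0.16). Against 2i, Skp2 was lower in LIF+PD by -0.52 (adjusted p = 0.00438), where Cdkn1b RNA was higher. It was also lower in CH+LIF than in 2i, by -0.34 (adjusted p = 0.0253), where the Cdkn1b difference (-0.24) did not pass. Fbxw7, which targets cyclin E, was higher than in 2i+LIF by 0.59 in LIF+PD and by 0.43 in CH+LIF. In 2i the difference was 0.38 (adjusted p = 0.0658). Against 2i, Fbxw7 did not pass in LIF+PD (0.20, adjusted p = 0.259) or CH+LIF (0.04, adjusted p = 0.816), and Ccne1 RNA was higher in both. The proteins p27Kip1 and cyclin E, on which Skp2 and Fbxw7 act, were not measured. Any link of Skp2 and Fbxw7 RNA to the RNA of Cdkn1b and Ccne1 was not tested.

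**Figure D4:**
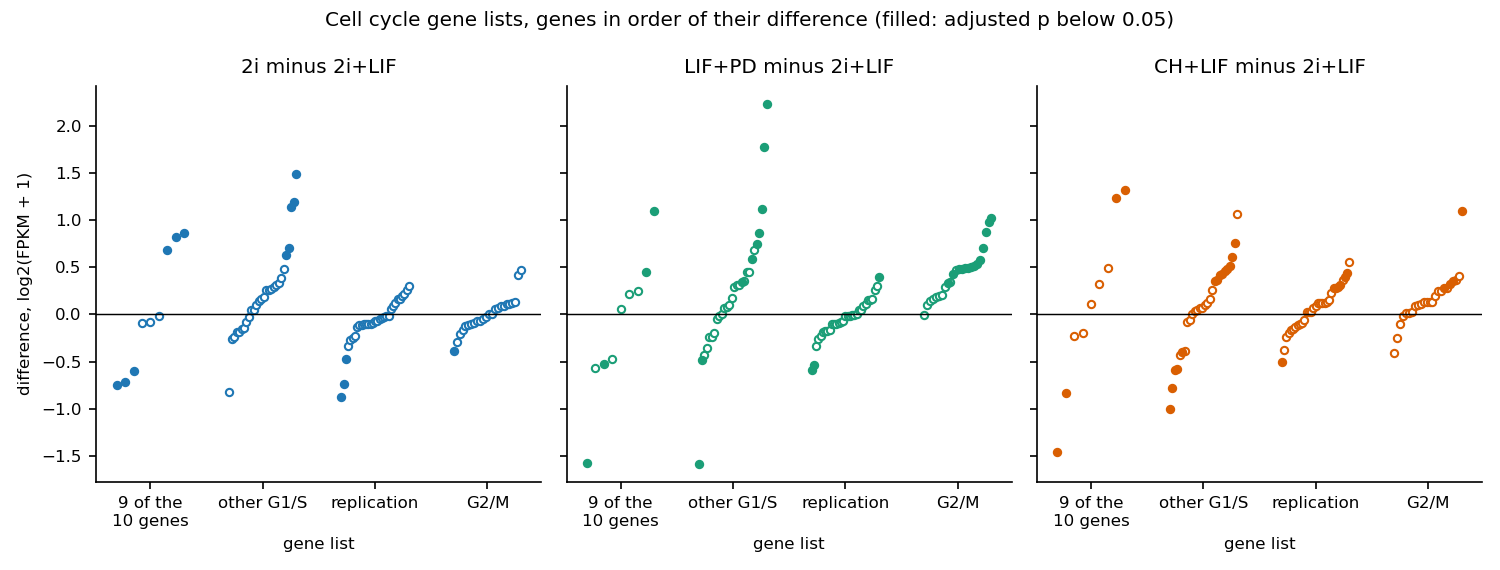
Difference from 2i+LIF on the log2(FPKM + 1) scale (vertical axis) of the genes of 4 lists (horizontal axis), in 2i, LIF+PD and CH+LIF (panels). Each point is a gene, placed in order of its difference within its list, and filled points have an adjusted p below 0.05. In LIF+PD, 13 of 24 G2/M genes are filled and all 13 are above 0.

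Genes of DNA replication, many of them known E2F targets, form a further list. Of 31 measured, 3 were lower and none higher in 2i than in 2i+LIF, 1 higher and 2 lower in LIF+PD, and 5 higher and 1 lower in CH+LIF. These are 9.68%, 9.68% and 19.4% of the list, against 18.6%, 25.2% and 25.4% of all genes. With each culture rescaled to the same sum, the CH+LIF count became 14 higher and none lower. The same rescaling raised the number of all 12927 genes called higher there from 1573 to 2903. With median-of-ratios scaling and with quantile normalization the CH+LIF count was 5 higher and 3 lower. In 2i, 3 genes were lower under each of these scalings, with 2 higher after rescaling, none with median-of-ratios scaling and 1 with quantile normalization. In LIF+PD the counts were 3 higher and 2 lower, 1 higher and 3 lower, and 1 higher and 2 lower, in the same order. The largest fall among called genes in 2i was in Uhrf1, a reader of hemimethylated DNA, at 293 and 293 FPKM in 2i+LIF and 143 and 176 in 2i (-0.88, adjusted p = 0.00262). In LIF+PD the extremes among called genes were Rrm2, a ribonucleotide reductase subunit (0.40, adjusted p = 0.0123), and Chaf1b, a histone chaperone subunit (-0.59, adjusted p = 0.0122). In CH+LIF they were Mcm10, an origin factor (0.44, adjusted p = 0.022), and Pold1, a DNA polymerase subunit (-0.51, adjusted p = 0.0272), while Pola1 had a larger difference that did not pass (0.56, adjusted p = 0.0956).

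Genes of G2 and mitosis act downstream of the steps that the 10 genes control. Of 24, 13 were higher and none lower in LIF+PD than in 2i+LIF (54.2%, against 25.2% of all genes). Compared with 2i, 14 were higher in LIF+PD and none lower (58.3%, against 25.1% of all genes). In CH+LIF 4 were higher and none lower than in 2i+LIF (16.7%, against 25.4% of all genes). With each culture rescaled to the same sum, 12 were higher and none lower. With median-of-ratios scaling 4 were higher and with quantile normalization 5, and none lower with either. Set directly against LIF+PD, CH+LIF had 5 of the 24 lower and none higher, or 4 to 7 lower under the 3 other scalings. These 5 are 20.8% of the list, against 30.4% of all genes called in that comparison and 17.8% called lower. In 2i Nusap1, a spindle protein gene, was the 1 gene called against 2i+LIF (-0.38, adjusted p = 0.00966), with 1 higher and none lower with rescaling and 2 lower with the other 2 scalings. The largest rise among called genes in LIF+PD was that of Hmmr, a spindle-associated gene, at 82.5 and 78.3 FPKM against 38.3 and 40.1 in 2i+LIF (1.02, SE 0.076, adjusted p = 0.000285). In CH+LIF it was that of Bub1b, a spindle checkpoint kinase, at 132 and 132 FPKM against 55.0 and 68.3 (1.09, SE 0.142, adjusted p = 0.0028). Under the 3 other scalings the LIF+PD count was between 11 and 16 higher and none lower. The lists, too, were chosen with earlier results of these data known. They describe RNA levels and hold no measure of the share of cells in each phase.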

How the data were processed

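RNA of 8 cultures (2 per condition) was sequenced. The authors mapped single-end reads to mm10 (tophat2, Ensembl 75 annotation) and used those with a unique position. For the libraries the methods name rRNA depletion and the sample records polyA RNA. The deposited values are FPKM for each gene in each culture, with bounds, and the submitters' processing notes name TopHat2, Cufflinks and Cuffdiff without versions. FPKM carry no read totals, so precision rests on 2 cultures per condition.

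Entries with the same identifier were summed, and genes with at least 1 FPKM in at least 2 cultures were tested. Log2(FPKM + 1) values were fitted with limma 3.58.1 (R 4.3.3), with 4 groups and 4 residual degrees of freedom, a method tested on simulated data. The spread of each gene was pooled over the groups and drawn towards a mean-variance trend over all genes tested. P-values were adjusted by Benjamini-Hochberg over all genes tested, with a threshold of 0.05. An exact permutation test of 2 against 2 cannot go below p = 0.333 and was not used. Alternatives covered the pseudocount (0.1 and 5), filter, scaling, trend, samples fitted, replicate number, each culture left out and, chosen after seeing the data, the midpoint of the bounds. All 10 genes are named, and from each further list the called genes with the largest rise and fall against 2i+LIF, with other G1/S regulators where their role needs them. The 10 genes and the lists were chosen with earlier results of these data known. Cdt1 and Gins2 were not analysed here. Promoters are RefSeq windows and overlaps are from GENCODE M21.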

Additional observations from a re-analysis of the deposited data

How the results depend on the processing

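Each comparison was recomputed under 19 alternatives, 8 of which left out a culture. All 33 calls of the 10 genes kept their direction. The number of genes called among the 9 tested was between 2 and 6 with a culture left out in 2i against 2i+LIF (6 in the reported fit), 3 and 4 in LIF+PD against 2i+LIF (4), 4 and 5 in CH+LIF against 2i+LIF (4), 6 and 9 in LIF+PD against 2i (8), 3 and 6 in CH+LIF against 2i (6) and 3 and 5 in CH+LIF against LIF+PD (5). Leaving out a culture leaves a condition with 1 sample, whose spread is taken from the others, and 1 fewer degree of freedom. The low counts were 3 and 2 without replicate 1 or 2 of 2i+LIF and 3 without replicate 2 of 2i in 2i against 2i+LIF, 3 without replicate 2 of CH+LIF in CH+LIF against 2i, and 3 without either CH+LIF culture or without replicate 2 of LIF+PD in CH+LIF against LIF+PD. Without the mean-variance trend the last comparison also had 3, and the cause was not tested.

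Differences that changed sign had not been called. With another setting, Ccne2 in 2i against 2i+LIF, -0.01 in the reported fit, became 0.0047 with a pseudocount of 5, 0.046 with each culture rescaled to the same sum and 0.0032 from the midpoints of the bounds. Cdk2 in CH+LIF against 2i+LIF became 0.00097 with rescaling, and Cdk4 in CH+LIF against 2i became 0.029 with quantile normalization. With each culture left out in turn, Ccne2 ranged from -0.54 to 0.51 (without replicate 2 and 1 of 2i) and Ccne1 from -0.24 to 0.085 (without replicate 2 and 1 of 2i+LIF) in 2i against 2i+LIF, with Ccne2 at 0.12 without replicate 2 of 2i+LIF. Cdk2 ranged from -0.073 to 0.19 in LIF+PD against 2i+LIF (without replicate 2 and 1 of LIF+PD). Ccnd3 ranged from -0.12 to 0.33 in CH+LIF against 2i+LIF and from -0.38 to 0.081 in CH+LIF against LIF+PD (extremes without replicate 2 and 1 of CH+LIF), and Ccne2 from -0.0087 to 1.03 in CH+LIF against 2i (without replicate 1 and 2 of 2i).

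Rescaling to the same sum moved the median of all genes by 0.12 in LIF+PD and 0.18 in CH+LIF against 2i+LIF and by 0.12 in CH+LIF against 2i. It raised the share of higher genes among all those called from 58.6% to 74.8%, 47.9% to 74.1% and 44.5% to 64.1%, and the sums of FPKM ranged from 715575 to 875458 between cultures. With only the 2 conditions compared, 1605 genes were called in 2i against 2i+LIF instead of 2408 and 1942 in CH+LIF against 2i instead of 3089. Same-numbered replicates did not deviate together (r between -0.03 and 0.09 over 6 pairs of conditions). With the replicate number as a block, Cdkn2a in LIF+PD against 2i+LIF gained a call (-0.47, adjusted p = 0.0242), and Ccnd1 in LIF+PD against 2i (-0.37, adjusted p = 0.0516) and Ccne2 in CH+LIF against LIF+PD (1.06, adjusted p = 0.0555) lost theirs. The pairing changed no other call of the 9 genes.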
